A study of Mus musculus with 21 samples.

Results

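The interaction of 2 stimuli was measured in mouse aortic smooth muscle cells after 24 h: for each gene, the change that the antibody to the lymphotoxin beta receptor (LTBR) made on top of tumour necrosis factor (TNF), minus the change that it made alone. The measure was taken over the 12 of the 21 arrays in the series that were labelled 24 h and numbered 1, 2 or 3, with 1 array per number in each of 4 groups, and it was computed within each number for every one of 12285 genes. The groups were cells given both TNFalpha at 1 ng/ml and alpha-LTBR at 10 µg/ml, cells given TNFalpha alone at 1 ng/ml, cells given the agonist antibody alone at 10 µg/ml, and controls given PBS, the solvent of both. Per the labels, all 4 groups were cultures of aortic cells from C57BL/6J males aged 10 to 12 weeks, kept in DMEM/F12 with 10% FCS. Whether the numbers are separate cultures or animals is not in the labels, so the spread behind every p-value is that of these arrays and may be technical. The series asks, by its title, whether combined signalling through the TNF receptor and LTBR turns such cells into lymphoid tissue organizers, the stromal cells that attract and hold lymphocytes.

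Both receptors act through NF-kB, a family of transcription factors that wait in the cytoplasm bound to inhibitors. TNF mainly triggers the fast canonical pathway, in which the inhibitor encoded by Nfkbia is degraded and Rela-containing dimers enter the nucleus. LTBR also triggers the slower alternative pathway, in which the product of Nfkb2 is cut and pairs with Relb. Many targets, among them Nfkbia and Nfkb2, encode parts of the pathway itself.

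The deposited values were linear signal intensities. A gene is additive on the log2 scale where its 2 fold changes multiply, so that the interaction is 0, and additive on the linear scale where its 2 increments add, so that the signal with both agonists equals TNF plus antibody minus PBS (the linear sum). For a gene that rises with each agonist the product is above the sum, and the 2 scales can put the same gene on opposite sides. The log2 test used log2(signal + 10.3) in limma with the number as a block, and a call is a Benjamini-Hochberg adjusted p under 0.05 over all 12285 genes.

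The labelled cell type was checked first. All 6 smooth muscle markers (Acta2, Tagln, Cnn1, Myh11, Myl9 and Cald1) were above the array median on all 12 arrays. Of the macrophage markers, 2 of 7 (Csf1r and Lyz2) were, while Ptprc and Itgam were above it on none. Fcer1g was above it on 3 arrays, and Cd68 and Tyrobp on 4 each, those of number 3. Tyrobp had 242 to 269 in number 3, against 45.2 to 99.5 in numbers 1 and 2. C1qb, from the longer macrophage list used below, had 369 to 632 in number 3, against 39.5 to 141. Of the endothelial markers 1 of 6 (Kdr) was, with Tek and Tie1 above it on none. Pecam1 and Cdh5 were above it on 6 arrays each and Vwf on 1. Neither of the 2 lymphocyte markers with a probe set of their own was above it on any. The longer lymphocyte list used below went both ways. Its members Zap70 (275 to 1470), Ighm (400 to 707) and Cd8a (316 to 638) were above the median on all 12 arrays, while Ms4a1 (89.4 to 204) was not. Of the markers of adventitial fibroblasts, Pdgfra and Cd34 were above the median on all 12 arrays, Dpt on 3 and Pi16 on none. Array medians ranged from 107.2 to 138.7, and pairs of arrays correlated at 0.9541 to 0.9775.

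Most genes had an interaction near 0 on the log2 scale. Only 2169 of the 12285 changed with both agonists at an adjusted p under 0.05, so for most genes this says little of how the agonists combine. The median interaction was 0.02 over all 12285 genes, with a median standard error (SE) of 0.149, and for 10925 genes (88.9%) the unadjusted 95% interval lay inside -1 to 1, that is, within 2-fold of additive. Below 0, 11 genes were called (0.0895% of those tested), all of them with 3 of 3 numbers below 0. Above 0, no gene was called (0%), although 521 genes (4.24%) had an unadjusted limma p under 0.05 with a positive interaction, against 388 (3.16%) with a negative one. Without the number as a block no gene was called in either direction and 141 had an unadjusted p under 0.05. A fit to all 15 arrays at 24 h, whose 3 arrays numbered 0 include none with both agonists, called 2 genes, Clca3a2 and Nfkbia.

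**Figure D1:**
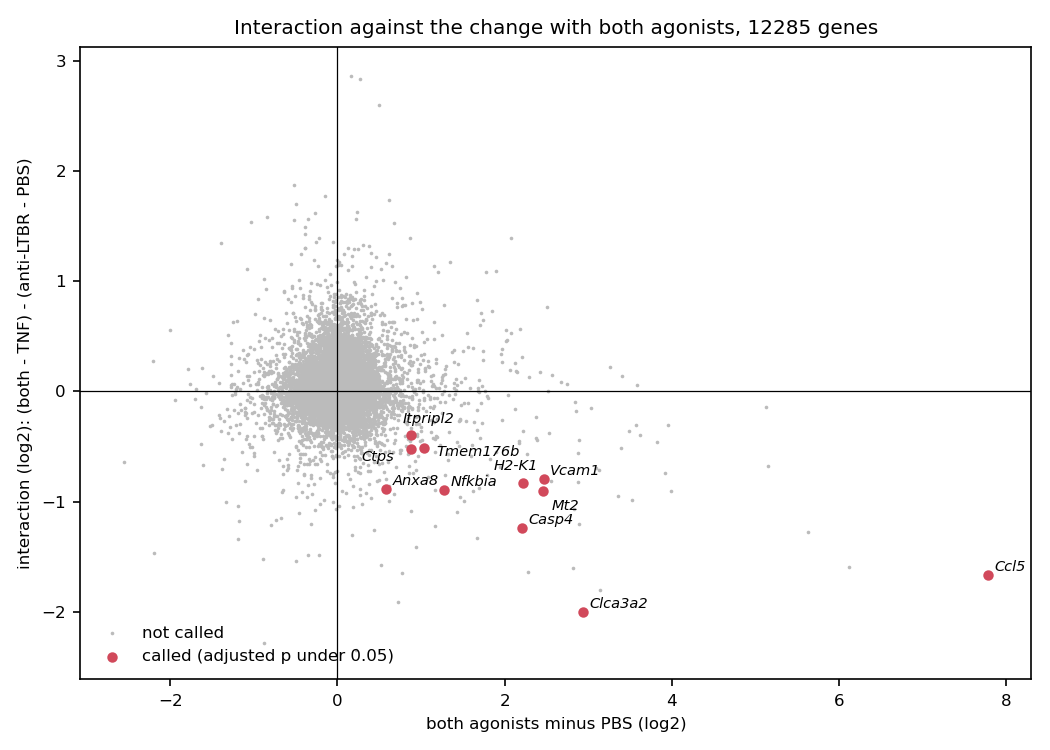
Interaction on the log2 scale (vertical axis) against the log2 change with both agonists from PBS (horizontal axis) for each of the 12285 tested genes, 1 point per gene, with the 11 called genes in red and named. All 11 called genes sit below 0 and to the right of 0, from Itpripl2 at -0.40 to Clca3a2 at -2.0.

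All 11 called genes rose with both agonists together (adjusted p under 0.05 for both agonists against PBS), and for all 11 the mean signal also lay above PBS with each agonist alone. They comprised the NF-kB inhibitor gene Nfkbia, the adhesion molecule gene Vcam1, the chemokine gene Ccl5, the MHC class I gene H2-K1, the inflammatory caspase gene Casp4, the metallothionein gene Mt2, and Ctps, Anxa8, Clca3a2, Tmem176b and Itpripl2. Promoter sequences from RefSeq (GRCm38.p6), each running from 250 bases before to 50 after the annotated start, were in the table for 9 of the 11. Of these 9, 5, among them Casp4, H2-K1, Nfkbia and Tmem176b, held a match to the NF-kB consensus on either strand, with overlapping matches allowed, as did 8.46% of all 32851 promoters in the table and 1242 of the 9936 tested genes that have one (12.5%). A pair of GAAA half-sites with any 2 bases between them is of the kind bound by interferon regulatory factors. On either strand, it was in 1 of the 9, in 3.44% of all promoters and in 350 of the 9936 tested genes (3.52%). A gene was counted if any of its windows held a match, and the other windows of Tmem176b held no NF-kB match. The NF-kB inhibitor, the antigen presentation gene and the caspase are printed because their windows show how the matches lie; capitals mark the bases of NF-kB consensus matches, read 5′ to 3′ on the strand of the gene. Nfkbia lies on the minus strand at chr12:55492598-55492897, with its match starting at -29 from the start. H2-K1 lies on the minus strand at chr17:34000298-34000597, with overlapping matches at -111 and -110. Casp4 lies on the plus strand at chr9:5308599-5308898, with overlapping matches at -93 and -92 and another at -39. A match is a run of letters, not a measured binding site.
Nfkbia: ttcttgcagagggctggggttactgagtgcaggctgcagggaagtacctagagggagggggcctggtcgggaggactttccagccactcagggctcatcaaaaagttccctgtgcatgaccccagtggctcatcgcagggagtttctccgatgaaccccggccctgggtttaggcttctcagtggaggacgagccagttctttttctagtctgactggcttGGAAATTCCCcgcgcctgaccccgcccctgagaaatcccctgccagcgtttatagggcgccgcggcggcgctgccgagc
H2-K1: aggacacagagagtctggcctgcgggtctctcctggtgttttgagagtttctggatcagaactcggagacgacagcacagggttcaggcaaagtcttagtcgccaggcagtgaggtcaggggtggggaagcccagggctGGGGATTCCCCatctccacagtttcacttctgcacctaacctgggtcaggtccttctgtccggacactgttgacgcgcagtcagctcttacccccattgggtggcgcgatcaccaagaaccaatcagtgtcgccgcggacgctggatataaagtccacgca
Casp4: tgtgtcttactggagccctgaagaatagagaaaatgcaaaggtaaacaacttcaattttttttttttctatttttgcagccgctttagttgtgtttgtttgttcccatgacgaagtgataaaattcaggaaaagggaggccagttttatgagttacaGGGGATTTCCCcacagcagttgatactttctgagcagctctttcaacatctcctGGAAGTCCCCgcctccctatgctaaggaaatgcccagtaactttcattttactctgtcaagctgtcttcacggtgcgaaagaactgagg

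Nfkbia had the smallest p of the called genes. Its signals were 18172, 14904 and 14595 with both agonists, 16733, 13529 and 12787 with TNF, 15614, 13092 and 11940 with the antibody, and 7377, 6636 and 5623 with PBS, for numbers 1, 2 and 3. Within each number the order was the same, with both agonists highest, TNF next, the antibody just below it and PBS lowest. The interaction was -0.96, -0.84 and -0.89 in the 3 numbers (fitted -0.90 ± 0.06 SE, limma adjusted p = 5.43e-05), and the mean with both agonists of 15890 ± 1982 (SD, n = 3) was below both the product (29703) and the linear sum (21353), at 0.744 of the sum. The Nfkbia probe set used lies near the top of the scale, where the highest signal of an array was 20140 to 26348. Probe sets of the same gene with lower means gave interactions of -1.09 (mean signal 7663), -1.23 (3484) and -1.07 (4910), and 1 with a mean of 597 gave -0.16 ± 0.17 (SE).

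Vcam1 encodes an adhesion molecule that holds leukocytes on stromal and endothelial cells. Its signals were 10501, 11364 and 8981 with both agonists, 7313, 8134 and 6610 with TNF, 4982, 5083 and 3524 with the antibody, and 2065, 2069 and 1457 with PBS, and no array of one group overlapped another group. The interaction was -0.75, -0.81 and -0.83 (fitted -0.79 ± 0.09 SE, adjusted p = 0.00814), yet the signal with both agonists was 1.026, 1.019 and 1.035 times the linear sum of its number. On the linear scale, Vcam1 was thus close to the sum in every number, and its 2 other probe sets gave log2 interactions of -0.56 and -0.85.

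Ccl5, a chemokine that attracts T cells and monocytes, was sub-additive on one scale and above the sum on the other. It had signals of 5704, 5885 and 4115 with both agonists, 1471, 1535 and 1366 with TNF, 190, 323 and 268 with the antibody, and 13.2, 10.1 and 17.0 with PBS. Both agonists together gave 3.46, 3.19 and 2.54 times the linear sum of their number, while the log2 interaction was -1.15, -2.10 and -1.77 (fitted -1.67 ± 0.26 SE, adjusted p = 0.0472). The PBS signals of Ccl5 lie at the offset of 10.3 added before the logarithm, so its log2 interaction depends on that offset: it was -2.35 with an offset of 1 and -0.48 with an offset of 50, where it was no longer called, and -0.59 in the fit to all 15 arrays, also not called. The excess over the linear sum uses no offset, and its log2 ratio was 1.60 ± 0.15 (SE over the 3 numbers), with an adjusted p of 0.307.

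H2-K1 encodes a heavy chain of MHC class I, which presents peptides to CD8 T cells, and Casp4 encodes a caspase that responds to cytosolic lipopolysaccharide. H2-K1 had signals of 12271, 10747 and 10426 with both agonists, 9831, 10043 and 9559 with TNF, 4912, 4404 and 5079 with the antibody, and 2399, 2154 and 2591 with PBS (interaction -0.83 ± 0.10 SE, adjusted p = 0.00814). The groups do not overlap, but both agonists exceeded TNF by only 0.18 ± 0.07 on the log2 scale, against 1.01 for the antibody over PBS. Its probe set is of a kind that can hybridise to near-identical MHC class I genes, so the signal may not come from H2-K1 alone, and 3 other H2-K1 probe sets gave -1.42, -0.61 and -0.18. Casp4 had 1345, 1267 and 1241 with both agonists, 1015, 1255 and 952 with TNF, 696, 871 and 792 with the antibody, and 284, 245 and 280 with PBS (interaction -1.24 ± 0.16 SE, adjusted p = 0.0143). One TNF array of Casp4 reached the level seen with both agonists (number 2), and the means with both were 0.807 times the linear sum.

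The other 6 called genes were metabolic or of other function. Anxa8, an annexin that binds phospholipids in the presence of calcium, had 1490, 708 and 1615 with both agonists, 1673, 877 and 1633 with TNF, 1673, 774 and 1783 with the antibody, and 971, 518 and 996 with PBS. It was the 1 called gene whose signal with both agonists lay below that with each agonist alone in all 3 numbers (interaction -0.89 ± 0.11 SE, adjusted p = 0.00814; 0.643 times the linear sum). Clca3a2, of a family of chloride channel regulators, had 9346, 2525 and 2103 with both agonists, 6343, 1605 and 1334 with TNF, 7568, 2055 and 1678 with the antibody, and 1872, 244 and 225 with PBS. Number 1 stood above the others in every group, and the order within each number was the same, with an interaction of -1.45, -2.37 and -2.19 (fitted -2.0 ± 0.23 SE, adjusted p = 0.00814); a second probe set gave -2.08. Mt2, a metallothionein that binds zinc, had 12374, 7418 and 9239 with both agonists, 9780, 6028 and 7080 with TNF, 5317, 2701 and 4738 with the antibody, and 2417, 1341 and 1560 with PBS (interaction -0.90 ± 0.14 SE, adjusted p = 0.0413). With both agonists Mt2 came to 0.957 times the linear sum. The smallest called interactions belonged to Ctps, the synthase of the nucleotide CTP (-0.52 ± 0.08 SE, adjusted p = 0.0413), Tmem176b, a membrane protein gene (-0.51 ± 0.08, adjusted p = 0.0472), and Itpripl2 (-0.40 ± 0.05, adjusted p = 0.0259). In these 3 the signals with both agonists were 0.82, 0.849 and 0.869 times the linear sum.

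**Figure D2:**
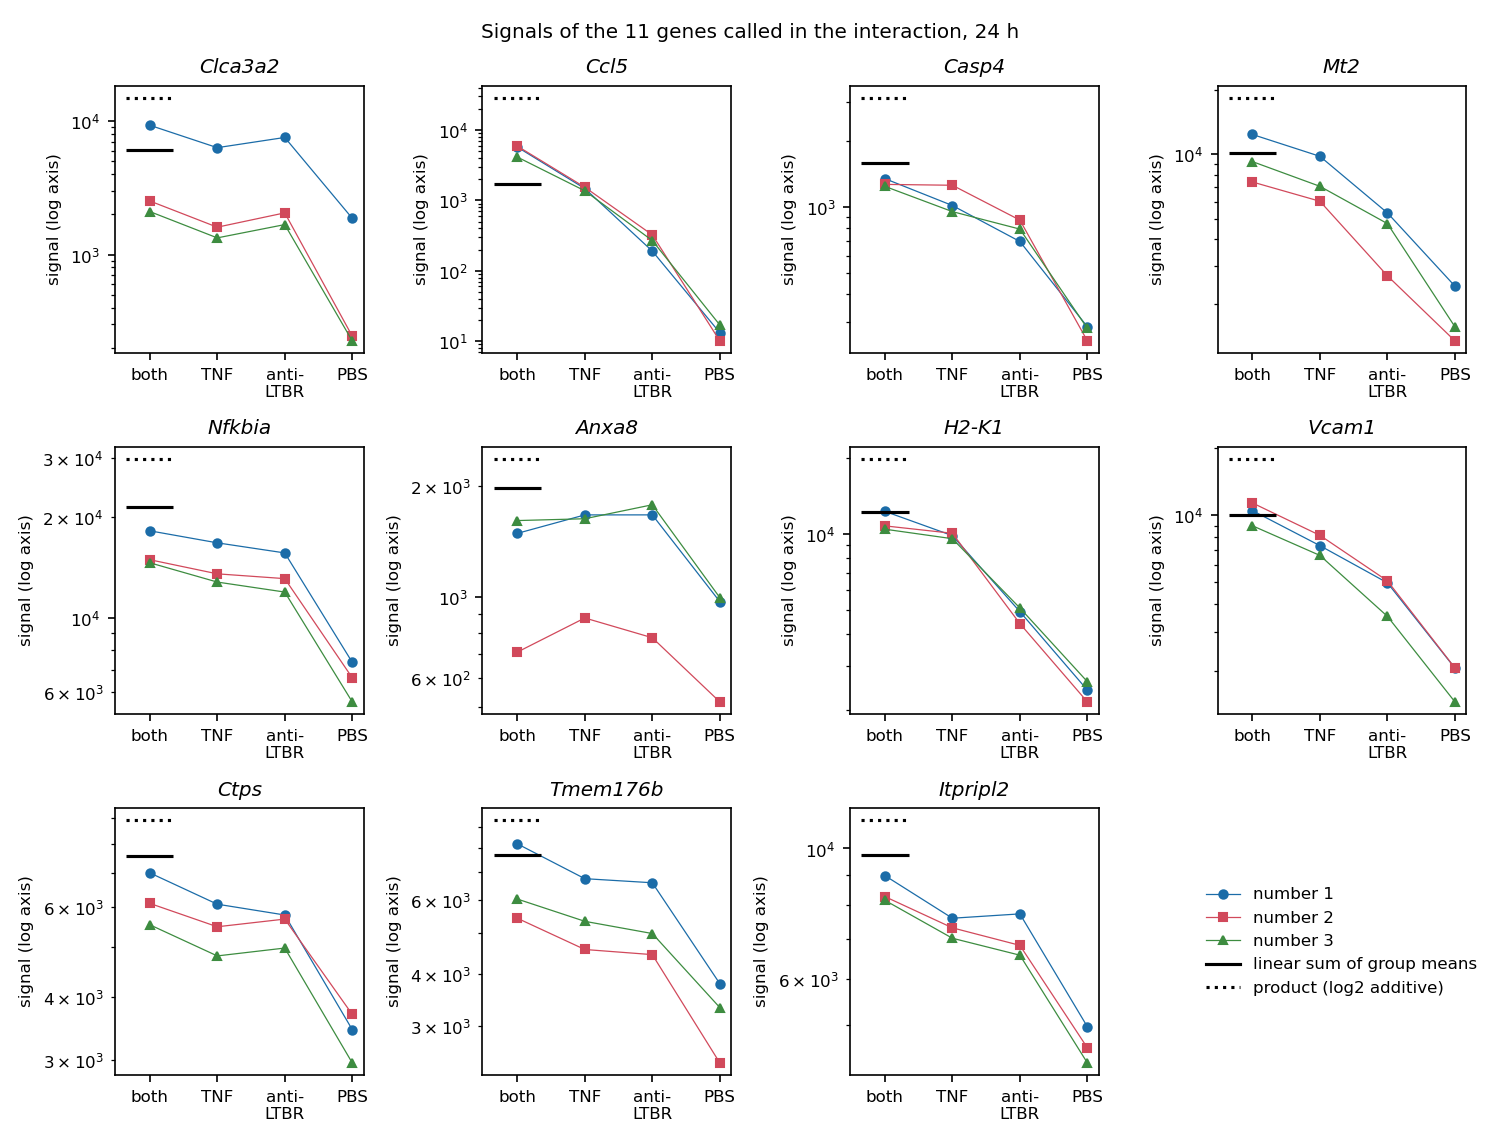
Signal (log axis) of each called gene with both agonists, TNF, the antibody (anti-LTBR) and PBS, 1 panel per gene and 1 line per number, with the linear sum of the group means as a solid bar and the product of the fold changes as a dotted bar. The mean with both agonists lies below the product in all 11 panels, and in the Ccl5 panel it lies at 3.07 times the sum.

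Support for the 11 calls was uneven when arrays were left out. Nfkbia, Clca3a2, H2-K1 and Vcam1 were called in all 12 fits that left out 1 array, Anxa8 in 11 and Casp4 in 7. Ccl5 and Mt2 were called in 2 of the 12, and Ctps, Itpripl2 and Tmem176b in 1. With a whole number left out, Nfkbia was called in 3 of 3 fits, Clca3a2 in 1, and the other 9 genes in none. The estimates stayed below 0 in all of these fits for all 11 genes.

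To classify the genes that responded to the combination, responders were taken from the contrast of both agonists against PBS. In this balanced layout that contrast is independent of the interaction if the noise is equal in the groups, which was not tested. With both agonists 1001 genes rose (8.15% of those tested) and 1168 fell (9.51%), 2169 in all. Of the responders 11 were sub-additive, all rises, and none was more than additive. A further 2004 were within 2-fold of additive, 882 rises and 1122 falls, by the unadjusted 95% interval. The remaining 154, 108 rises and 46 falls, were unresolved, because the interval reached past 2-fold in at least one direction. The interval lay within 2-fold for 775 of the 801 rises and 1065 of the 1080 falls under 2-fold. It did so for 93 of the 135 rises of 2 to 4-fold, 14 of the 43 of 4 to 8-fold and 3 of the 22 of 8-fold and over. For changes under 2-fold the bound is wider than the change, so the class says little of how the agonists combine. The number of responders was 372 without the block, of which 282 were within 2-fold of additive and 90 unresolved.

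The 6 largest rises within 2-fold of additive included genes of interferon and TNF family signalling. Gbp3, a guanylate-binding protein induced by interferon, had signals of 2492, 4676 and 3023 with both agonists, 1028, 2724 and 1425 with TNF, 363, 585 and 714 with the antibody, and 199, 249 and 374 with PBS. Its interaction was 0.06 (95% interval -0.65 to 0.77), so that the means with both agonists (3397 ± 1139, SD, n = 3) were near the product (3488) and 1.69 times the linear sum (2005). Cxcl16, a transmembrane chemokine, had 1897, 2049 and 1666 with both agonists, 986, 1159 and 1008 with TNF, 588, 542 and 415 with the antibody, and 241, 249 and 258 with PBS. Its groups did not overlap, its interaction was -0.18 (interval -0.51 to 0.15), and the ratio to the linear sum was 1.42, 1.41 and 1.43 in the 3 numbers. The other 4, Tnfrsf9, a costimulatory receptor of T cells, Ly6e, Psmb10, a subunit of the immunoproteasome, and Parp14, an ADP-ribosyltransferase, had interactions of -0.30, -0.15, 0.07 and 0.15 and ratios of 1.61, 1.45, 1.60 and 1.60.

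Among the largest falls within 2-fold of additive were Acan, which encodes the cartilage proteoglycan aggrecan, Peg3, an imprinted gene, G0s2, an inhibitor of lipolysis, and Fgl2. Acan had 1158, 727 and 790 with both agonists, 2378, 814 and 1227 with TNF, 3088, 1043 and 1607 with the antibody, and 5353, 2156 and 2456 with PBS, so that within every number both agonists were lowest and PBS highest. The interactions of Acan, Peg3, G0s2 and Fgl2 were 0.21, -0.07, 0.03 and -0.14. For such falls the 2 decrements can add up to nearly the whole PBS signal, and the linear sum of Acan was 63.9 against a mean of 892 with both agonists, so ratios to the sum are not read for them.

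Among responders the interaction was lower in the groups with larger rises, which is a description without a test of the trend. The 801 rises under 2-fold had a median interaction of 0.001, and the 135 rises of 2 to 4-fold one of -0.004. The 43 rises of 4 to 8-fold had a median of -0.18, with 20 (46.5%) below 0 in all 3 numbers, against 12.1% of all genes. The 22 rises of 8-fold and over had a median of -0.59, and 19 of them were below 0, 11 (50%) in all 3 numbers and none above 0 in all 3. Per number the median of these 22 was -0.33, -0.83 and -0.67. They include Ccl5, Ccl7, Ccl2, Cxcl10, Gbp6, Psmb9, Oasl2, Nfkbie, Gbp2, Icam1 and Lcn2, and 1 of the 22, Ccl5, was called. Their median PBS signal was 84.3, below the array medians, against 817 for the rises under 2-fold, and the median interaction moved to -0.33 with an offset of 50 and to -0.16 in the fit to all 15 arrays. The part of the low PBS signals in the trend beyond the offset was not tested. If low PBS signals are noisier than the signals with both agonists, choosing large rises also favours interactions below 0. Whether that holds here was not tested either.

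On the linear scale no gene was called (0%), with 651 genes (5.3%) above and 215 (1.75%) below the sum at an unadjusted limma p under 0.05. Leaving out 1 array or 1 number gave 0 or 1 calls, and the fit to all 15 arrays gave 2. Of the 22 rises of 8-fold and over, 21 had a mean with both agonists above the linear sum, with a median ratio of 1.54, and 16 were above it in all 3 numbers and none below it in all 3. Over all tested genes 17.6% were above in all 3 numbers and 10.9% below. Of the 200 rises of 2-fold and over, 156 (78%) had a mean above the sum. In all 3 numbers 99 of the 200 (49.5%) lay above it and 24 (12%) below it. For 68 of the 200 the mean with both agonists lay between the sum and the product, and for 195 it exceeded the mean with either agonist alone. Across all tested genes the sign of the deviation was the same on both scales for 94.9%. Of the 22 rises of 8-fold and over, 18 had a mean with both agonists between the sum and the product. These groups of rises were chosen by their signal with both agonists against PBS. That signal is also the numerator of the ratio to the sum. The independence stated for the log2 interaction therefore does not hold for the ratio, and the counts for these groups are a description.

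**Figure D3:**
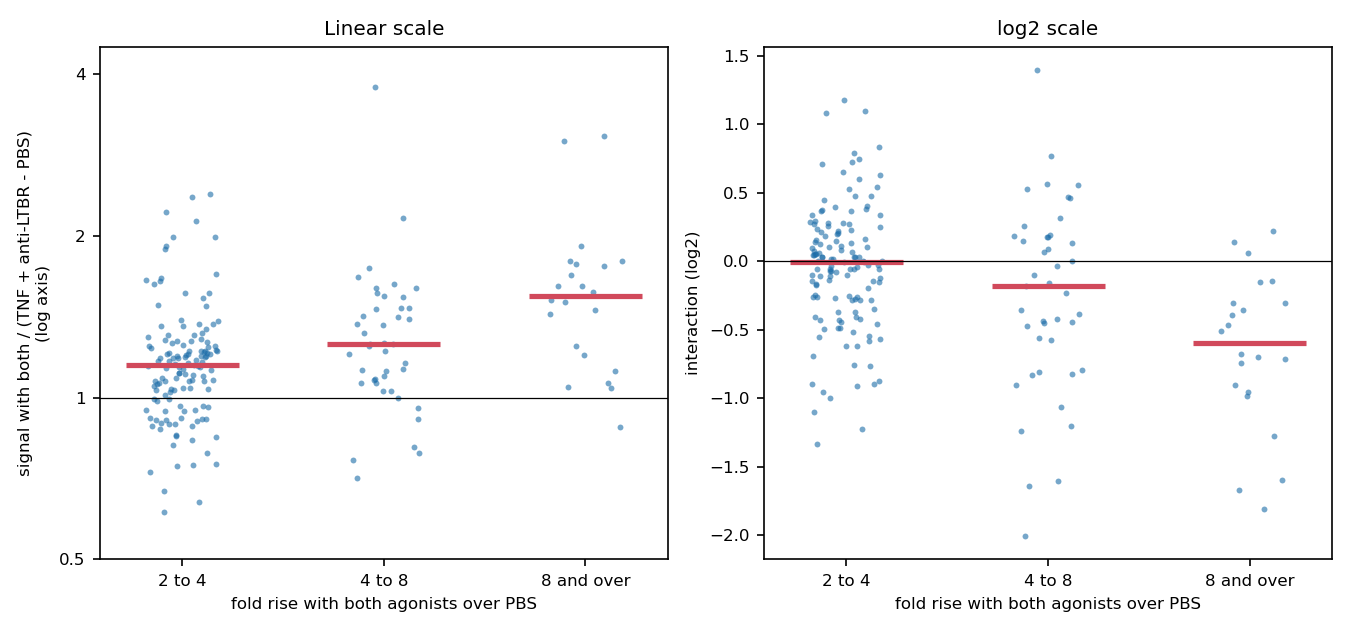
Left, the mean signal with both agonists over the linear sum (log axis), and right, the log2 interaction, for rises of 2 to 4-fold, 4 to 8-fold and 8-fold and over, 1 point per gene with the median as a red bar. In the group of 8-fold and over the median is 1.54 on the left, above 1, and -0.59 on the right, below 0. The genes were grouped by the rise with both agonists, whose signal is also the numerator on the left.

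Chemokine genes spread to both sides of 0. Of 17 genes on the list 10 were tested, 8 rose with both agonists and none fell, against 8.15% and 9.51% of all genes, 1 (Ccl5) was called in the interaction, and all 10 means lay above the linear sum, 6 in all 3 numbers. The median interaction was -0.09, against 0.02 for all genes. A gene silent with PBS was tested only where its signal passed the filter on treated arrays. Ccl5, Ccl7 and Cxcl10, with mean PBS signals of 13.4, 25.2 and 41.4, lay below the array medians there. The counts of rises and of means above the sum are thus partly set by the filter, here and in the lists below. Ccl2, which attracts monocytes, had 8410, 6166 and 4666 with both agonists, 4103, 2916 and 1683 with TNF, 1426, 673 and 335 with the antibody, and 237, 111 and 56.7 with PBS. Its groups did not overlap, its interaction of -1.28 ± 0.25 (SE) had an adjusted p of 0.166, and both agonists gave 1.59, 1.77 and 2.38 times the sum. Ccl7, which acts on the same receptor family, had an interaction of -1.60 ± 0.27 (adjusted p = 0.0756) and gave 1.91 times the sum. Ccl9 lay on the other side, with 4773, 2809 and 2903 with both agonists, 1302, 1060 and 1124 with TNF, 2512, 1426 and 1992 with the antibody, and 860, 782 and 939 with PBS (interaction 0.39 ± 0.19, adjusted p = 0.699).

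Of 16 genes on the list of lymphoid tissue organizer genes 12 were tested, 7 rose with both agonists and none fell, against 8.15% and 9.51% of all genes, and 1 (Vcam1) was called in the interaction. The median interaction was -0.10. Cxcl13, the chemokine that attracts B cells into follicles, was the member with the highest interaction. It had 406, 660 and 509 with both agonists, 162, 229 and 362 with TNF, 136, 195 and 240 with the antibody, and 110, 127 and 265 with PBS, so that every array with both agonists lay above every other array. Its interaction was 0.98, 0.91 and 0.62 (fitted 0.84, 95% interval 0.21 to 1.47, adjusted p = 0.541), and both agonists gave 2.15, 2.22 and 1.51 times the linear sum. It did not pass the test on either scale.

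Genes of the NF-kB pathway were given by role. Of 15 subunits and kinase regulators 11 were tested, and 10 rose with both agonists, against 8.15% of all genes. None was called in the interaction, 4 were below 0 in all 3 numbers and none above, against 12.1% and 16.2% of all genes, and the median was -0.12. Nfkb2, the precursor subunit of the alternative pathway, had 1865, 1245 and 919 with both agonists, 694, 433 and 501 with TNF, 1201, 905 and 811 with the antibody, and 202, 196 and 114 with PBS. In Nfkb2 the antibody exceeded TNF in every number, the interaction was -1.21 ± 0.21 (adjusted p = 0.086), and the mean with both agonists was 0.999 times the linear sum. Relb, its partner, had an interaction of -0.45 ± 0.17 (adjusted p = 0.592) and 1.12 times the sum, and Traf2, an adaptor of both receptors, -0.53 ± 0.14 (adjusted p = 0.422) and 0.779 times the sum. Of 26 feedback and target genes 23 were tested, and 16 rose and 1 fell with both agonists, against 8.15% and 9.51% of all genes. In the interaction 1 of the 23 (Nfkbia) was called, against 0.0895% of all genes, 9 were below 0 in all 3 numbers and 2 above, against 12.1% and 16.2%, and the median was -0.15. Bcl3, a nuclear partner of NF-kB dimers, had the lowest value (-1.81 ± 0.38, adjusted p = 0.222), with PBS signals of 51.8, 11.2 and 16.3 near the offset.

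Il6, on the same list of target genes, stood below TNF alone when the antibody was added. This inflammatory cytokine gene had 614, 438 and 337 with both agonists, 948, 724 and 355 with TNF, 394, 235 and 193 with the antibody, and 314, 225 and 176 with PBS. In each number both agonists lay between the antibody and TNF, by 0.47 ± 0.14 (SE, log2) under TNF, and the interaction was -0.94, -0.77 and -0.20 (adjusted p = 0.498).

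Interferon-stimulated and antigen presentation genes rose with both agonists without a called interaction, other than H2-K1. Of 38 interferon-stimulated genes 32 were tested and 31 rose, against 8.15% of all tested genes. The median change with both agonists was 1.88 on the log2 scale, beside 1.36 with TNF and 0.55 with the antibody. Their median interaction was -0.10, with 6 below 0 in all 3 numbers and 3 above, against 12.1% and 16.2% of all genes, so these counts are not read as a result. The linear sum was exceeded in all 3 numbers by 20 of the 32, against 17.6% of all genes, and none was below it in all 3, against 10.9%. Among all rises, the share above the sum in all 3 numbers was 41.5% for 2 to 4-fold and 62.8% for 4 to 8-fold. The 20 of 32 is thus not read as particular to interferon-stimulated genes. The 4 members with the smallest p were Ifit2 (interaction 0.53, adjusted p = 0.618), Oasl1 (interaction -1.42, adjusted p = 0.676), Rsad2 (interaction 0.60, adjusted p = 0.766) and Eif2ak2 (interaction -0.39, adjusted p = 0.772). Of 19 MHC class I and immunoproteasome genes 15 were tested, 13 rose (against 8.15% of all genes), 1 was called in the interaction and the median was -0.06. Psmb9, an immunoproteasome subunit, had 848, 849 and 389 with both agonists, 376, 300 and 181 with TNF, 236, 139 and 157 with the antibody, and 30.2, 26.1 and 39.3 with PBS (interaction -0.90 ± 0.39, adjusted p = 0.651). Tapbp, the peptide-loading chaperone tapasin, gave -0.27 ± 0.08 (adjusted p = 0.491) at 1.01 times the sum. Of 21 complement and acute phase genes 14 were tested, 10 rose (against 8.15% of all genes), none was called in the interaction and the median was -0.11, with Lcn2, an iron-siderophore carrier, at -0.95 ± 0.22 (adjusted p = 0.295).

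**Figure D4:**
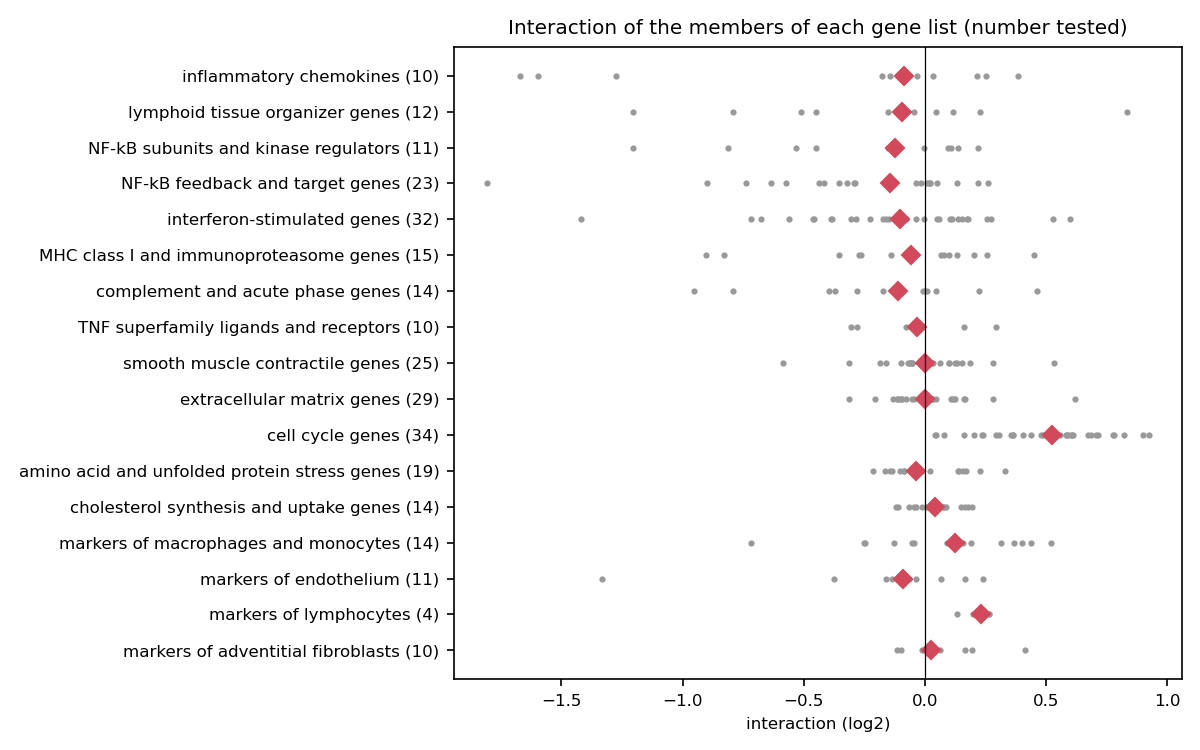
Log2 interaction (horizontal axis) of each tested member (grey points) of the 17 gene lists, with the list median as a red diamond and the number tested in brackets. Most medians lie near 0, and the cell cycle list, with all 34 tested members above 0, has a median of 0.52.

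Cell cycle genes were the list farthest from 0, on the positive side, although no member was called. Of 36 genes 34 were tested, all 34 had an interaction above 0, and 29 were above 0 in all 3 numbers, against 16.2% of all genes. The list median was 0.52, against 0.02 for all genes, and it was 0.49, 0.41 and 0.69 in numbers 1, 2 and 3. The median change from PBS was 0.15 with both agonists, -0.39 with TNF and 0.04 with the antibody, on the log2 scale. Within numbers 1, 2 and 3 the list medians were 0.19, 0.31 and -0.10 with both agonists, -0.46, -0.18 and -0.64 with TNF, and 0.20, 0.09 and -0.16 with the antibody. With TNF, 31, 29 and 31 of the 34 genes lay below the PBS array of their number, against 8, 5 and 19 with both agonists and 4, 10 and 26 with the antibody. The interaction and the TNF change share the TNF and PBS arrays. With arrays scaled to equal medians, which moved the median of all genes to -0.07, 31 of the 34 interactions were above 0, and with quantile normalization 33. Among the list's genes 6 rose with both agonists and none fell, against 8.15% and 9.51% of all genes.

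Bub1, a kinase of the spindle checkpoint and among the members with the smallest p, had 214, 413 and 282 with both agonists, 116, 250 and 124 with TNF, 210, 321 and 170 with the antibody, and 181, 306 and 227 with PBS. In each number TNF was lowest and both agonists highest, and the interaction was 0.62, 0.64 and 1.51 (fitted 0.92 ± 0.21 SE, adjusted p = 0.295). The list as a whole differed. Its median with both agonists was no higher than with the antibody in number 1 and was below PBS in number 3, and its median interaction was 0.52. Top2a, the DNA topoisomerase of dividing cells, had an interaction of 0.69 ± 0.16, Tk1, a thymidine kinase of S phase, 0.82 ± 0.19, and Mcm6, a subunit of the replicative helicase, 0.48 ± 0.12, with adjusted p from 0.292 to 0.359. In bulk arrays a change in the share of dividing cells and a change in RNA per cell cannot be told apart.

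**Figure D5:**
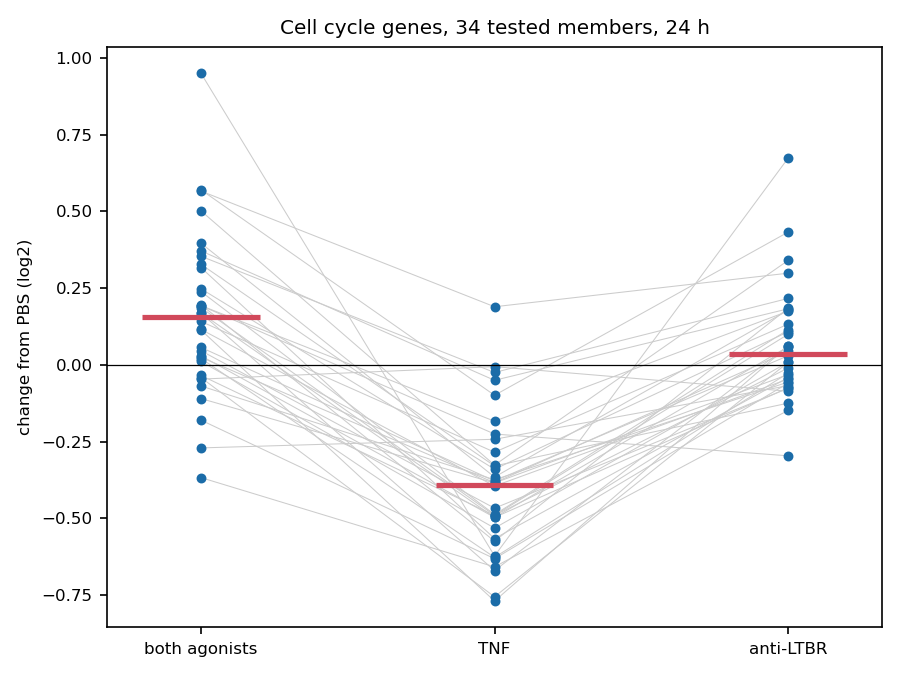
Log2 change from PBS of the 34 tested cell cycle genes with both agonists, TNF and the antibody (anti-LTBR), 1 point per gene joined by grey lines, with the median as a red bar. The medians are 0.15 with both agonists, -0.39 with TNF and 0.04 with the antibody.

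No gene was called above 0, and under the alternatives there was 1 such call with no filter, 2 without the antibody array of number 2, 2 without the PBS array of number 2, and none in the others. The 10 positive interactions with the smallest p are given as values. Prc1, which bundles microtubules in cytokinesis, had 691, 1184 and 892 with both agonists, 504, 813 and 600 with TNF, 640, 1012 and 780 with the antibody, and 699, 1034 and 986 with PBS. With both agonists 1 of its 3 signals lay within the range of the PBS arrays, 1 below it and 1 above it, and the TNF array was the lowest of each number (interaction 0.68 ± 0.12, adjusted p = 0.0806). It was called only when the PBS array of number 2 was left out, among the fits that left out 1 array (adjusted p = 0.0414). Smc2, a condensin subunit (0.54), Spdl1, a spindle protein (1.25), Zwilch, of the kinetochore (0.68), Cdc25b, a phosphatase that activates cyclin-dependent kinases (0.63), Haus8, of the augmin complex (0.67), and Tube1, a tubulin (0.71), also work in cell division. The others were 1700023A20Rik (1.39), Krtap12-1 (0.84) and Fbll1 (0.57), and the adjusted p of these 9 was 0.134 to 0.222.

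The lists of contractile and matrix genes had median interactions near 0. Their median changes with both agonists were small, -0.37 and -0.12 on the log2 scale, so these medians say little of how the agonists combine. All 25 smooth muscle contractile genes were tested, and 17 fell and 1 rose with both agonists, against 9.51% and 8.15% of all tested genes. None was called in the interaction, and the median was 0.001. Myh11, the smooth muscle myosin heavy chain, had 564, 2153 and 1738 with both agonists, 529, 2286 and 2031 with TNF, 638, 2728 and 2316 with the antibody, and 822, 3338 and 2519 with PBS (interaction 0.18, 95% interval -0.04 to 0.41). Within numbers 2 and 3 both agonists were lowest and PBS highest, while in number 1 TNF was lowest. Ppp1r12b, a subunit of myosin phosphatase, had the smallest p of the list (0.53 ± 0.17, adjusted p = 0.513). Of 30 extracellular matrix genes 29 were tested, 12 fell and 2 rose (against 9.51% and 8.15% of all genes), none was called in the interaction, and the median was -0.001, with Col8a1 at -0.11 ± 0.05 (adjusted p = 0.635).

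Markers of other cells were measured on the same scale. Of 19 macrophage and monocyte markers 14 were tested, with a median interaction of 0.12 and summed signals of 2579 to 9062 with both agonists, 3390 to 7052 with TNF, 2301 to 6545 with the antibody and 2448 to 9019 with PBS. The 11 tested endothelial markers of 18 had a median of -0.09 and summed signals of 3492 to 6408, 3216 to 6445, 3843 to 6795 and 3330 to 6783 in the same order of groups. The 4 tested lymphocyte markers of 15 had a median of 0.23, with sums of 1571 to 2982, 1433 to 2491, 1443 to 2251 and 1439 to 2898, and the 10 tested fibroblast markers of 13 a median of 0.02, with sums of 26786 to 38868, 26742 to 37392, 27383 to 38146 and 28909 to 37766. No member of the 4 marker lists was called in the interaction, and the ranges of the 4 groups overlap for every list.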

How the data were processed

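Gene expression was measured on Affymetrix mouse arrays, 1 per sample, each with 45101 probe sets. The deposited values are linear signal intensities that the authors made with GCOS 1.4, per the submitters' processing notes. With 2 percent of probe sets trimmed from either end, every array averages 500. The number of arrays limits the precision. For the summarization and background steps, no method is given in the sources used here.

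The platform annotation gives 1 gene symbol for 34945 probe sets, several for 932 and lists none for 9160, and 64 controls were dropped. A probe set was kept if above its own array's median on at least 3 of the 12 arrays, and each of 12285 genes is given by its kept probe set with the highest mean. The offset of 10.3 is the 10th percentile of all signals on the 12 arrays. The fit used limma 3.58.1 in R 4.3.3 with a variance trend, the number as a block and 6 residual degrees of freedom, with Benjamini-Hochberg adjustment over all genes. The linear test used signal divided by the gene's mean. The script was tested on simulated data.

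The number was kept as a block because the interaction is defined within numbers. The numbers pair the arrays: deviations from group means correlated at 0.50 to 0.73 in the 18 same-number pairs, and at -0.50 to 0.0033 in the 36 pairs that differ in both number and group. For all 12 arrays the best match was a same-number array. No columns were identical.

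Responders were called in the contrast of both agonists against PBS and classed by the interaction call or its 95% interval. Named genes were the 10 largest called negative interactions, to which the remaining called gene, Itpripl2, was added, the 10 smallest p among positive ones, the 6 largest rises and 4 largest falls within 2-fold of additive, and, per list, at most 4 genes with the smallest p; Il6 was among the target genes named that way. Cxcl10, Gbp6, Nfkbie, Gbp2, Oasl2 and Icam1 were named after their values were seen. The rule for extreme linear ratios named no gene, since none was called. The members, the 17 gene lists and the tests were chosen with earlier results of these data known. Alternatives were other scalings, offsets, filters, probe set rules and fits, and leaving out each array or number. Promoter windows are printed for 3 of the called genes.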

Additional observations from a re-analysis of the deposited data

Results flagged for a closer look

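Among the 3126 passing probe sets without a single gene name, 1 was called in the interaction, below 0, and none above. Probe set 1460259_s_at, which the platform annotation assigns to several genes, had an interaction of -1.43 ± 0.13 (SE, limma adjusted p = 0.000714). Its signals were 7117, 2661 and 2080 with both agonists, 4798, 1541 and 1270 with TNF, 5423, 1861 and 1557 with the antibody, and 1508, 409 and 297 with PBS, so that the order within each number was the same and number 1 stood highest in every group. It was picked out because it lies outside the comparisons of named genes. The called gene Clca3a2 had the same order of groups within each number and the same high number 1. Whether the probe set measures the same transcripts was not tested, so it is not read as a separate interaction. Of the 3126 probe sets 213 had an unadjusted p under 0.05.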

How the results depend on the processing

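The count of 11 called interactions was 0 with no replicate block, 7 with quantile normalization, with no filter or with the mean of all probe sets, 1 with no variance trend and 2 with all 15 arrays. It was 12 with arrays scaled to equal medians (8 of the 11 among them), 12 with an offset of 1, 10 with an offset of 50, 10 with the filter on all arrays, and 9 from the 3 differences per number alone. The equal-medians scaling moved the median of all genes to -0.07. Sub-additive responders numbered 0 with no replicate block, 7 with quantile normalization and with the mean of all probe sets, 6 with no filter, 1 with no variance trend and 2 with all 15 arrays. Without the block, which holds the pairing of the arrays by number, there were 372 responders, 282 within 2-fold of additive and 90 unresolved. The unresolved class was 96 with an offset of 50 and 45 with the filter on all arrays. The linear test called 2 genes with all 15 arrays. The median of rises of 8-fold and over was -0.33 with an offset of 50 and -0.16 with all 15 arrays.

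Leaving out 1 array or 1 number gave 1 to 12 called interactions, 1049 to 2337 responders, 1 to 10 sub-additive, 0 to 1 more than additive, 915 to 2147 within 2-fold, 131 to 191 unresolved and 0 to 1 linear calls, a median of -0.70 to -0.33 for rises of 8-fold and over and of 0.40 to 0.59 for cell cycle genes. Of the comparisons of a named gene's interaction with its value under another setting, 2149 kept their side of the threshold or moved by less than the spread of the 3 numbers, 140 lost a call, 10 gained one, 66 moved by more and none changed sign while called. Those 10 concern Ccl7, Ccl2, Nfkb2, Bcl3 and Prc1. The alternative by log2 ratio to the linear sum, and the medians of the cell cycle genes and of the largest rises, were added after seeing the data. With 3 arrays a group, an interaction had a median SE of 0.149, and low PBS signals limit what the log2 scale can say of the largest rises.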

Other observations

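Stress and sterol genes had median interactions near 0. Of 20 genes of amino acid and unfolded protein stress 19 were tested, 5 fell and 2 rose with both agonists, against 9.51% and 8.15% of all genes, none was called in the interaction, and the median was -0.04. Atf4, a transcription factor of the integrated stress response, had 4633, 4236 and 4144 with both agonists, 5898, 4919 and 5280 with TNF, 5798, 4710 and 5551 with the antibody, and 6636, 5846 and 6138 with PBS (interaction -0.09, 95% interval -0.24 to 0.07). All 3 arrays with both agonists lay below all 9 others. Of 18 genes of cholesterol synthesis and uptake 14 were tested, 2 rose and 1 fell, near the 8.15% and 9.51% of all genes, none was called in the interaction, and the median was 0.04.

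Of 20 ligands and receptors of the TNF superfamily 10 were tested, and 3 rose with both agonists, against 8.15% of all genes. None was called in the interaction, all 10 had a 95% interval within 2-fold of additive, and the median was -0.03. Tnfrsf1a, the main receptor of soluble TNF, had 3350, 2754 and 3874 with both agonists, 3409, 2218 and 3457 with TNF, 3283, 2655 and 3455 with the antibody, and 3075, 2832 and 3538 with PBS, and its groups overlap (interaction 0.16, interval -0.08 to 0.40).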
